A study of Mus musculus with 6 samples.

Results

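The chaperones described here are 10 genes chosen by symbol: the HSP70 proteins Hspa8 and Hspa1b, the HSP90 proteins Hsp90aa1 and Hsp90ab1, the small heat shock proteins Hspb1, Hspb6, Hspb7, Hspb8 and Cryab, and the myosin chaperone Unc45b. The platform annotation gave 17 of the 45281 probes a symbol from this list. These probes cover 9 of the 10 genes (of 19057 symbols on the array), as no probe carried the symbol Hsp90ab1. Tibialis anterior, a fast hindlimb muscle, was profiled on Illumina bead arrays in male mice aged 8 weeks. Their strain was a Sv129/Black Swiss mix in both groups. The 3 wild type mice served as controls, and the 3 Neb SH3-deleted mice lacked the SH3 domain of nebulin, the giant thin filament protein whose SH3 domain lies in the Z-disc. Each mouse gave 1 array, and the labels call them biological replicates.

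Chaperones bind unfolded or misplaced proteins and help them fold, reassemble or be removed. HSP70 and HSP90 proteins do so with ATP and with helper proteins, while small heat shock proteins hold clients without ATP and are abundant in muscle, where several bind the Z-disc and its filaments under strain. Many of these genes are switched on by heat shock factor through repeats of the letters GAA and TTC in their promoters.

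The stretches that hold short repeats of this kind are shown here, and whether these stretches respond to heat was not tested. RefSeq promoter windows (GRCm38.p6) were matched for 6 members, and the 250 bases before each start were searched on both strands for GAANNTTC and TTCNNGAA, motifs that can overlap by sharing one triplet. The matches are in capitals, each with 10 bases before the first and after the last match, written 5′ to 3′ along the gene's own strand.
Hspb1 (chr5:135887792-135887839, plus strand): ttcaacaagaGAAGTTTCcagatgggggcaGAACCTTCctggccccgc
Hspa1b (chr17:34959325-34959352, minus strand): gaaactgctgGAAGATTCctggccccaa
Hspb6, second listed start (chr7:30553171-30553198, plus strand): agtaattattGAAGTTTCtaaataagga

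Hspb1 held 2 matches to GAANNTTC, and Hspa1b and Hspb6 held 1 each. No match to either motif was found in these letters for Hspb7, Hspb8, Unc45b or the first listed start of Hspb6. Of all 32851 windows, 6.69% held GAANNTTC and 7.17% held TTCNNGAA. A match is a description of the letters, and no binding was measured.

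Of the 9 chaperone genes with a probe, 5 were at or near background. A probe was called above background on an array when its detection p-value, the share of negative control probes at least as bright, was under 0.05. By this measure 6 of the 17 probes, for the 4 genes Hspa8, Hspb6, Hspb8 and Cryab, were above background on all 6 arrays, and 10 probes were so on 0 arrays. The remaining probe, of Hspb1, was so on 1 array of each genotype. Testing was kept to probes above background on 3 or more of the 6 arrays, which left 6 chaperone probes among 3422 kept probes. Over these kept probes wild type array 2 and Neb SH3-deleted array 1 stood apart from the other 4 on the first principal component. Results are also given without these 2 arrays. The other 4 were not all alike, since Neb SH3-deleted array 3 stood apart on the second component.

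**Figure D1:**
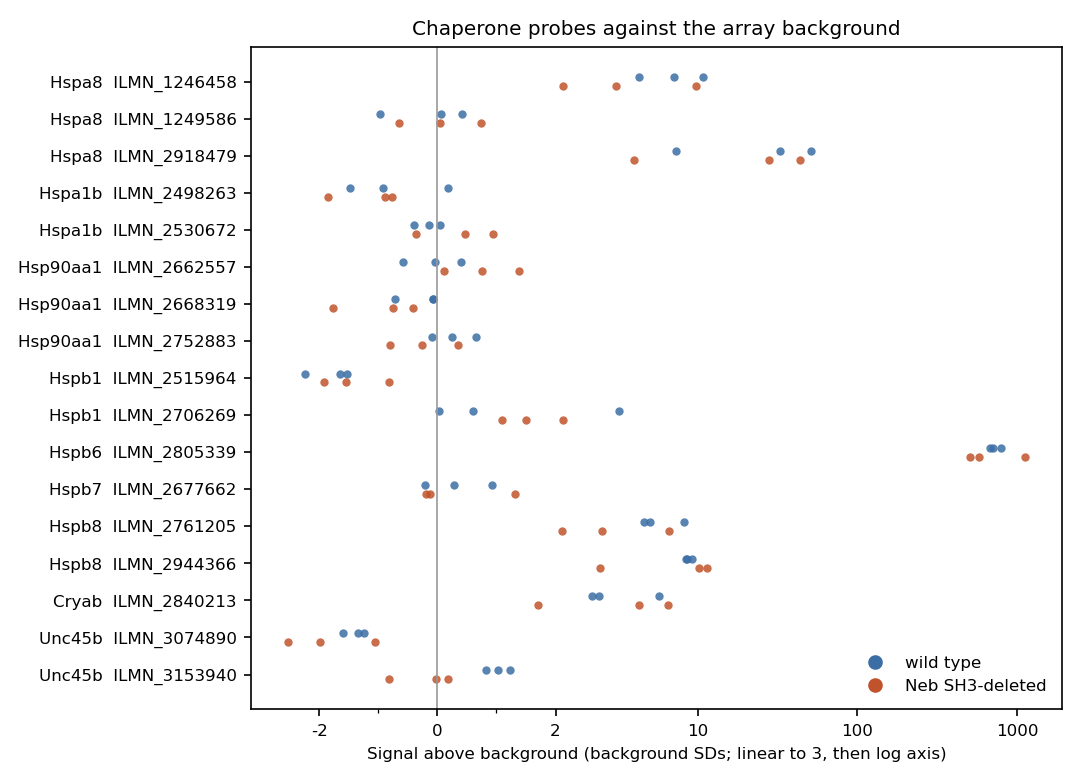
Signal of the 17 chaperone probes on each array, as the distance from that array's mean background in background SDs (linear to 3, then a log axis), with 1 point per array, blue for wild type and orange for Neb SH3-deleted. Hspb6 lies 510 to 1125 SDs above background, whereas the probes of Hspa1b, Hsp90aa1, Hspb7 and Unc45b lie between -2.53 and 1.38.

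Hspa1b, the heat-inducible HSP70, was represented by 2 probes. Probe ILMN_2498263 read 86.9, 80.4 and 78.8 units of signal in wild type arrays 1, 2 and 3 and 82.7, 81.6 and 82.1 in Neb SH3-deleted arrays 1, 2 and 3. Its detection p-values ran from 0.442 to 0.974, and those of the second probe from 0.159 to 0.643. The probes of Hspa1a, a near-identical inducible copy from which these probes may not be separable, were also above background on no array.

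Hsp90aa1, the inducible cytosolic HSP90, had 3 probes with detection p-values from 0.0855 to 0.968. The probe nearest to detection, ILMN_2662557, read 87.7, 81.5 and 83.7 in wild type and 87.9, 89.3 and 89.2 in Neb SH3-deleted muscle. On each array the signal lay under the lowest one called above background, which was 88.7 to 95.1 depending on the array. The raw signal was higher on the Neb SH3-deleted arrays, but set against its own array's background Neb SH3-deleted array 3 (0.109 SDs) was below wild type array 1 (0.398 SDs).

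Hspb7, a small heat shock protein of heart and skeletal muscle, had 1 probe with detection p-values from 0.0919 to 0.587. For Hspb1 (HSP25), probe ILMN_2706269 read 86.4, 85.2 and 94.6 in wild type and 92.6, 89.7 and 92.7 in Neb SH3-deleted muscle. It was above background in wild type array 3 (detection p 0.0043) and Neb SH3-deleted array 1 (0.0267), and the other Hspb1 probe was above background on no array. Unc45b, which folds the myosin motor together with HSP90, was read by 2 probes with detection p-values from 0.105 to 0.991. No fold is given for these 5 genes, because neither genotype was above background on all its arrays. A signal at background limits what the array could see and does not show that the transcript was absent.

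Hspa8, the constitutive HSP70 that also removes clathrin coats, had 2 kept probes. Processed copies of this gene exist elsewhere in the genome, so a probe may read more than 1 locus. Probe ILMN_2918479 read 262.7, 106.5 and 193.8 units on wild type arrays 1, 2 and 3, and on the Neb SH3-deleted arrays in the same order it read 98.9, 232.8 and 189.8. Wild type array 2 and Neb SH3-deleted array 1 were low together, and the other 4 arrays lay well above them in both genotypes. After background correction and quantile normalization, which gives every array the same distribution, the levels were 6.48 ± 1.10 in wild type and 6.40 ± 1.22 in Neb SH3-deleted muscle (log2 intensity, SD, n = 3 each), a difference of -0.08 (Neb SH3-deleted minus wild type, 95% interval -1.41 to 1.25, adjusted p 0.991 by limma with Benjamini-Hochberg adjustment).

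With so wide a spread, leaving out a single array decided the value of this probe. The difference was 0.63 without Neb SH3-deleted array 1, 0.30 without wild type array 1, 0.18 without wild type array 3, -0.40 without Neb SH3-deleted array 2, -0.46 without Neb SH3-deleted array 3 and -0.71 without wild type array 2. Without both low arrays it was -0.0021.

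The second kept Hspa8 probe, ILMN_1246458, read 110.6, 96.9 and 119.9 in wild type and 95.8, 117.6 and 96.5 in Neb SH3-deleted muscle. Wild type array 2 was again the lowest of its genotype, but Neb SH3-deleted arrays 1 and 3 were both low. Normalized levels were 5.21 ± 0.45 and 4.90 ± 0.45 (SD, n = 3 each), a difference of -0.31 (95% interval -0.90 to 0.28, adjusted p 0.984 by limma). It was -0.0615 without wild type array 3, -0.12 without Neb SH3-deleted array 3, -0.51 without wild type array 2 and -0.56 without Neb SH3-deleted array 2. The levels of the 2 Hspa8 probes correlated at r = 0.39 over the 6 arrays, and the third Hspa8 probe was above background on no array.

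Hspb6 (HSP20), a small heat shock protein of skeletal, cardiac and smooth muscle, was far above background on all 6 arrays. Its probe (ILMN_2805339) read 2543, 2224 and 2753 units in wild type arrays 1, 2 and 3 and 1841, 3927 and 2197 in Neb SH3-deleted arrays 1, 2 and 3. Neb SH3-deleted array 2 was the highest of the 6 arrays and Neb SH3-deleted array 1 the lowest, so the wild type values lay inside the range of the other genotype.

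After normalization Hspb6 averaged 11.16 ± 0.29 on the wild type arrays and 11.57 ± 0.70 on the Neb SH3-deleted arrays (log2 intensity, SD, n = 3 each). The difference was 0.41 (95% interval -0.26 to 1.08, adjusted p 0.984 by limma), a fold of 1.33 with an interval from 0.834 to 2.12. It was 0.01 without Neb SH3-deleted array 2, 0.65 without Neb SH3-deleted array 1 and -0.01 where arrays were scaled to their medians instead (median scaling). Quantile normalization also changed the order of the arrays, since wild type array 1 was the lowest after it at 10.91, while wild type array 2 and Neb SH3-deleted array 1 took the same value of 11.09.

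Hspb8 (HSP22), which works with the co-chaperone Bag3 in clearing damaged Z-disc proteins, was dim but above background on every array in both of its kept probes. Probe ILMN_2944366 read 117.7, 110.5 and 111.9 in wild type and 120.2, 123.2 and 98.8 in Neb SH3-deleted muscle. Wild type arrays lay close together and Neb SH3-deleted array 3 stood below them, with the other Neb SH3-deleted arrays above. The normalized levels were 5.37 ± 0.07 and 5.38 ± 0.62 (log2 intensity, SD, n = 3 each), a difference of 0.01 (95% interval -0.57 to 0.59, adjusted p 0.996 by limma). The direction turned without Neb SH3-deleted array 1 (-0.26), without Neb SH3-deleted array 2 (-0.0672) and without wild type array 1 (-0.0203), and without Neb SH3-deleted array 3 the difference was 0.35.

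The second Hspb8 probe, ILMN_2761205, read 114.7, 97.9 and 100.6 in wild type and 94.9, 107.1 and 96.4 in Neb SH3-deleted muscle. The groups overlapped, with wild type array 1 highest and Neb SH3-deleted array 1 lowest in these raw signals. After normalization Neb SH3-deleted array 3 was the lowest, at 4.52 against 4.72 for Neb SH3-deleted array 1. The normalized levels of this probe were 5.03 ± 0.19 and 4.77 ± 0.28 (SD, n = 3 each), a difference of -0.26 (95% interval -0.67 to 0.15, unadjusted p 0.192 and adjusted p 0.984 by limma), the smallest unadjusted p among the kept chaperone probes. It was -0.41 without Neb SH3-deleted array 2, -0.13 without Neb SH3-deleted array 3 and -0.16 without wild type array 1. The difference was near 0 for one Hspb8 probe and -0.26 for the other, whose 95% interval included 0, and across the 6 arrays their levels correlated at r = 0.35 (a description, with no test).

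Cryab (αB-crystallin), the small heat shock protein that binds desmin and titin, had 1 probe (ILMN_2840213) close to background. It read 95.3, 92.0 and 103.0 in wild type and 91.1, 99.2 and 112.2 in Neb SH3-deleted muscle, with a highest detection p of 0.0491 in Neb SH3-deleted array 1. The lowest and the highest array both belonged to the Neb SH3-deleted group. Normalized levels were 4.73 ± 0.32 and 4.90 ± 0.54 (SD, n = 3 each), a difference of 0.17 (95% interval -0.42 to 0.75, adjusted p 0.984 by limma). Without Neb SH3-deleted array 3 the difference was -0.13, without Neb SH3-deleted array 1 it was 0.40, without wild type array 3 it was 0.35, and without wild type array 1 or 2 it was 0.06 or 0.09.

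**Figure D2:**
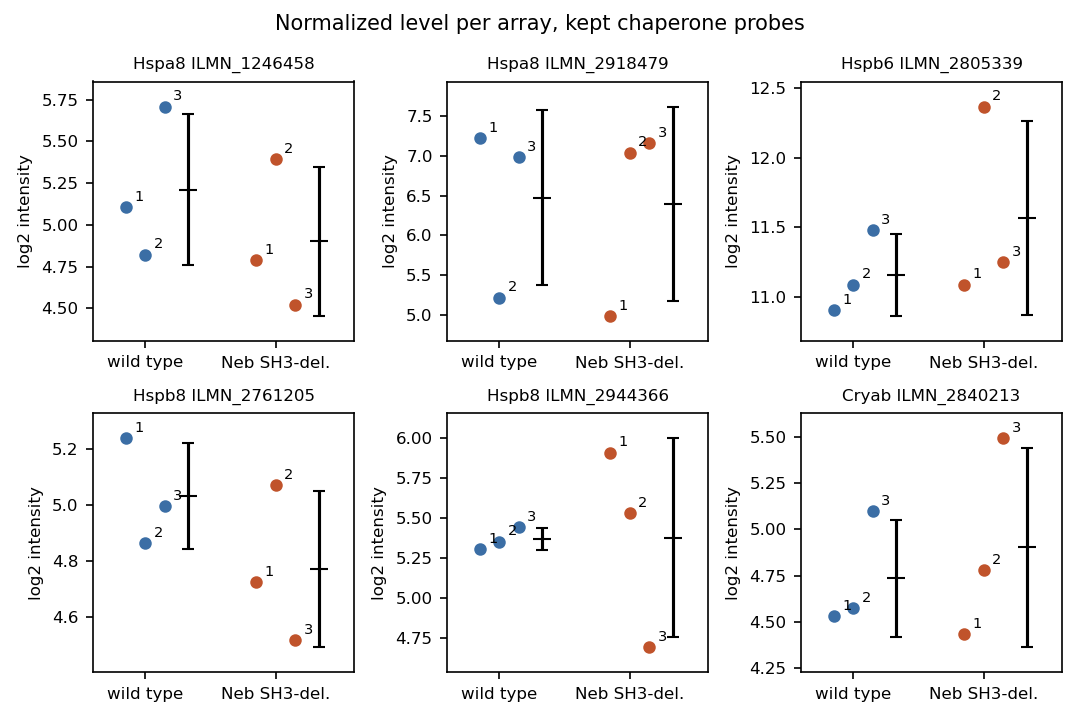
Normalized log2 intensity of the 6 kept chaperone probes on each array, numbered by replicate, with the mean and SD of each genotype (n = 3) as bars and a separate vertical scale in each panel. The genotypes overlap in every panel, and for Hspa8 ILMN_2918479 wild type 2 (5.22) and Neb SH3-deleted 1 (4.99) lie below the other arrays (6.98 to 7.23).

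No kept chaperone probe passed the test between the genotypes. With limma and Benjamini-Hochberg adjustment over all 3422 kept probes, 0 of the 6 passed an adjusted p of 0.05 and 0 reached an unadjusted p under 0.05, where the shares over all kept probes were 0% and 4.3% (1.64% higher and 2.66% lower). By direction alone 3 of their differences were above 0 and 3 below, against 43.9% and 56.1% of all kept probes, and 1 of 6 was above 0 with median scaling. The groups did not overlap for 0 of the 6, against 9.06% of all kept probes. The median difference was -0.03 on the log2 scale for the 6 probes and -0.03 for all kept probes. In whole muscle RNA, fewer cells of a type and less RNA per cell cannot be told apart.

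The intervals show what remained possible on the normalized scale. Their half-widths ran from 0.41 to 1.33 log2 units for the 6 probes, against a median of 0.40 over all kept probes. For Hspb8 ILMN_2761205 the interval ran from 0.627-fold to 1.11-fold, whereas for Hspa8 ILMN_2918479 it ran from 0.377-fold to 2.38-fold. These levels include an offset of 16 units added in the background correction, which draws the folds of dim probes towards 1. The interval of a dim probe, such as this Hspb8 probe, therefore understates the changes in transcript that remained possible.

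Among arrays of one genotype, 6 of the 6 chaperone probes varied more than the median kept probe. With cyclic loess, without background correction and in the authors' processed values 5 of 6 did. The residual SD, the spread of arrays around their genotype means, had a median of 0.45 log2 units for the 6 probes and of 0.21 for all kept probes. The size of this spread depended on the background correction: the medians were 0.156 and 0.0733 without it and 0.152 and 0.0719 in the authors' processed values. Hspa8 ILMN_2918479 had a residual SD of 1.16, at the 99.8th percentile of kept probes. Hspb6 followed at 0.53 (97.4th percentile). Hspa8 ILMN_1246458 was at 0.45 (94.6th percentile), while Cryab and Hspb8 ILMN_2944366 were both at 0.44. The second Hspb8 probe was at 0.24, near the middle of all kept probes (59.6th percentile). These ranks depended on the processing too. In the raw signals Hspa8 ILMN_1246458 was at the 84.0th percentile, Hspb8 ILMN_2944366 at the 77.1st and Cryab at the 75.3rd. Hspb6 was at the 98.0th there but at the 74.9th with cyclic loess, whereas Hspa8 ILMN_2918479 stayed at the 99.8th in both. Among kept probes within 0.5 log2 units of their own mean level, Cryab was at the 97.7th percentile, Hspa8 ILMN_2918479 at the 98.3rd and Hspb8 ILMN_2944366 at the 89.1st. Hspa8 ILMN_1246458 was at the 95.2nd and Hspb8 ILMN_2761205 at the 60.9th.

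The size of that spread can be read as a fold between arrays of the same genotype. Each mouse gave 1 array, so differences between mice and between arrays cannot be told apart. Hspa8 ILMN_2918479 spanned 4.03-fold among the wild type and 4.52-fold among the Neb SH3-deleted arrays after normalization, against 2.47-fold and 2.35-fold in the raw signals and 2.03-fold and 2.08-fold in the authors' processed values, read as log2. Hspb6 spanned 1.49-fold among wild type and 2.42-fold among Neb SH3-deleted arrays, the latter 1.38-fold with cyclic loess. The low signals moved more with the correction: Cryab spanned 1.48-fold and 2.08-fold but 1.12-fold and 1.23-fold in the raw signals. Hspb8 ILMN_2944366 spanned 1.10-fold and 2.32-fold, and 1.07-fold and 1.25-fold in the raw signals. Which genotype spanned more was not stable, as the Neb SH3-deleted span was the wider for 5 of 6 probes as reported, 3 of 6 in the raw signals and 2 of 6 with cyclic loess. Over all kept probes the median span was 0.35 log2 units in wild type and 0.40 in Neb SH3-deleted muscle, and a difference in spread between 3 and 3 arrays was not tested.

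**Figure D3:**
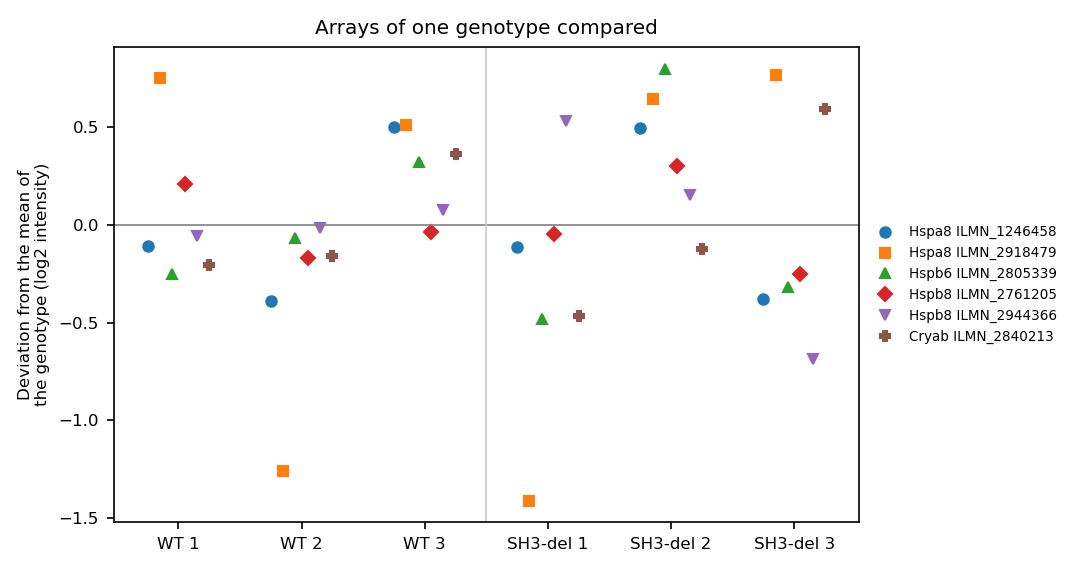
Deviation of each array from the mean of its genotype, in log2 intensity, for the 6 kept chaperone probes (1 symbol per probe). Wild type 2 lies below 0 on all 6 probes, wild type 3 and Neb SH3-deleted 2 lie above 0 on 5, and the lowest points are those of Hspa8 ILMN_2918479 on wild type 2 (-1.26) and Neb SH3-deleted 1 (-1.41).

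Within the wild type, array 2 was below the genotype mean on all 6 probes and array 3 above it on 5, with median deviations of -0.16 and 0.34 log2 units. Within the Neb SH3-deleted group, array 2 was above the mean on 5 of 6 probes (median 0.40), whereas array 1 was above it on 1 (median -0.29) and array 3 on 2 (median -0.29). Over all kept probes the median deviations of the arrays lay between -0.03 and 0.02. Quantile normalization holds these medians near 0, so they are no measure of what 6 probes would do. The shares of all kept probes above each genotype mean are not given. The counts therefore only describe these 6 probes, which stand for 4 genes. No single array was high on every chaperone: Neb SH3-deleted array 3 was the highest of its genotype for Cryab and Hspa8 ILMN_2918479 and the lowest for both Hspb8 probes.

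The low arrays of Hspa8 ILMN_2918479 are those that stood apart from the rest on the first principal component over all kept probes. The first principal component (32.6% of the variance) put wild type array 2 at 10.7 and Neb SH3-deleted array 1 at 12.4, with the other arrays between -6.64 and -5.09. Hspa8 ILMN_2918479 had the 6th largest weight of the 3422 probes on that component, and the other 5 chaperone probes ranked between 285 and 1520. Without these 2 arrays the differences were 0.61 for Hspb6, 0.32 for Cryab, -0.32 and -0.26 for Hspb8 (ILMN_2761205 and ILMN_2944366) and -0.45 for Hspa8 ILMN_1246458, and 0 of the 6 probes reached an unadjusted p under 0.05 by limma. On the second component Neb SH3-deleted array 3 lay apart at -13.2, with the other arrays between -4.93 and 6.17. The part of RNA quality or of sampling in the separation of wild type array 2 and Neb SH3-deleted arrays 1 and 3 was not tested.

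Other transcripts followed the members from array to array, given here as a description chosen from 2962 or 2963 kept probes with a symbol, and with no test. The levels most like Hspa8 ILMN_2918479 over the 6 arrays were those of Klhl41, a Kelch protein of muscle (r = 0.996), Rab2a, a small GTPase of membrane traffic (r = 0.992), and Cops7a, a COP9 signalosome subunit (r = 0.989). Klhl41 was at 5.56, 4.73 and 5.41 in wild type and 4.52, 5.49 and 5.50 in Neb SH3-deleted arrays 1, 2 and 3, low on the same arrays as Hspa8. A total of 48 probes with a symbol correlated with this Hspa8 probe at over 0.9. For Hspb8 ILMN_2944366 the nearest were Sgk1, a glucocorticoid- and serum-induced kinase (r = 0.985), Plin4, a lipid droplet coat protein (r = 0.984), and Nek9 (r = 0.969). For Hspb6 they were Ifitm3, an interferon-induced membrane protein (r = 0.960), H2-Ab1, an MHC class II chain (r = 0.946), and Pja2, a ubiquitin ligase (r = 0.946).

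Of 45 genes of the HSP70 system and its co-chaperones 13 had a kept probe, 4 with a difference above 0 and 9 below, with a median difference of -0.22 log2 units beside -0.03 over all kept probes. Of the 13, 0 passed the adjusted threshold and 1 reached an unadjusted p under 0.05 by limma. Over all kept probes 4.3% reached it, 43.9% were higher and 56.1% lower, shares that also stand beside the lists below. The gene that reached it was Bag1, which releases clients from HSP70. Bag1 was at 7.18, 7.63 and 7.54 in wild type and 7.07, 6.66 and 7.19 in Neb SH3-deleted arrays 1, 2 and 3, where wild type array 1 and Neb SH3-deleted array 3 overlapped. Its difference was -0.47 (95% interval -0.90 to -0.05, adjusted p 0.984 by limma), and it was -0.32 without Neb SH3-deleted array 2 and -0.76 with median scaling. Bag3, named here as the partner of Hspb8 after its values were seen, was at 6.80, 5.63 and 6.15 in wild type and 6.03, 6.30 and 6.80 in Neb SH3-deleted muscle. Its groups overlapped, and its difference of 0.18 (-0.46 to 0.82) was -0.10 without wild type array 2, -0.03 without Neb SH3-deleted array 3, 0.48 without wild type array 1, 0.35 without Neb SH3-deleted array 1 and -0.06 with median scaling.

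In the HSP90 system 9 of 22 genes had a kept probe, 2 higher and 7 lower (median -0.15), with 0 past the adjusted threshold and 0 at an unadjusted p under 0.05 by limma. The lower gene of smallest p was Stip1, which joins HSP70 to HSP90, at -0.38 (95% interval -0.81 to 0.04), and at -0.26 without wild type array 2. The higher one was Unc45a, the general counterpart of Unc45b, at 0.14 (-0.27 to 0.55), and at -0.0036 without Neb SH3-deleted array 1, 0.0573 without wild type array 2 and 0.30 without Neb SH3-deleted array 3.

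Among the other small heat shock proteins 1 of 5 was kept. Hspb2, which lies beside Cryab on chromosome 9, was at 4.63, 4.70 and 4.95 in wild type and 4.76, 4.78 and 4.77 in Neb SH3-deleted muscle, a difference of 0.01 (95% interval -0.33 to 0.36). The Neb SH3-deleted arrays lay within the wild type range, and the sign turned without wild type array 1 (-0.0538), without wild type array 2 (-0.0159) and with median scaling (-0.0563). Without wild type array 3 it was 0.11. Of the heat shock factors and their binding protein 4 of 5 had a probe and 0 were kept.

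Chaperonins and prefoldin, which fold actin and tubulin, had 6 of 17 genes with a kept probe, 2 higher and 4 lower (median -0.03). Of these 0 passed the adjusted threshold and 1 reached an unadjusted p under 0.05 by limma, beside 4.3% of all kept probes. Pfdn2, a prefoldin subunit, was at 6.55, 6.54 and 6.75 in wild type and 6.91, 7.15 and 7.05 in Neb SH3-deleted muscle, so that the groups did not overlap. Of the 6 genes 2 did not overlap, beside 9.06% of all kept probes. The other lists had 1 of 13 (HSP70), 1 of 9 (HSP90), 0 of 1 (small heat shock proteins) and 0 of 7 (clients). Besides Pfdn2, the prefoldin subunit Pfdn4 (named after its values were seen) did not overlap, with a difference of -0.32 (95% interval -0.70 to 0.05). The difference of Pfdn2 was 0.43 (95% interval 0.08 to 0.77, adjusted p 0.984 by limma), or 0.18 with median scaling, and 3 of 3 Neb SH3-deleted arrays were above every wild type array.

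Clients of muscle chaperones and genes of chaperone-assisted autophagy had 7 of 12 genes with a kept probe, 5 higher and 2 lower (median 0.09), with 0 past the adjusted threshold and 0 at an unadjusted p under 0.05 by limma. The desmin gene Des, named here because Cryab binds its product and not for its p-value, had a difference near 0 (95% interval -0.36 to 0.35). Acta1, skeletal actin, was the higher gene of smallest p at 0.38 (-0.04 to 0.80), and at -0.0158 with median scaling. Actn2, the Z-disc crosslinker α-actinin 2, was the lower one at -0.34 (-0.79 to 0.10), -0.22 without wild type array 2, -0.55 without wild type array 3 and -0.67 with median scaling.

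**Figure D4:**
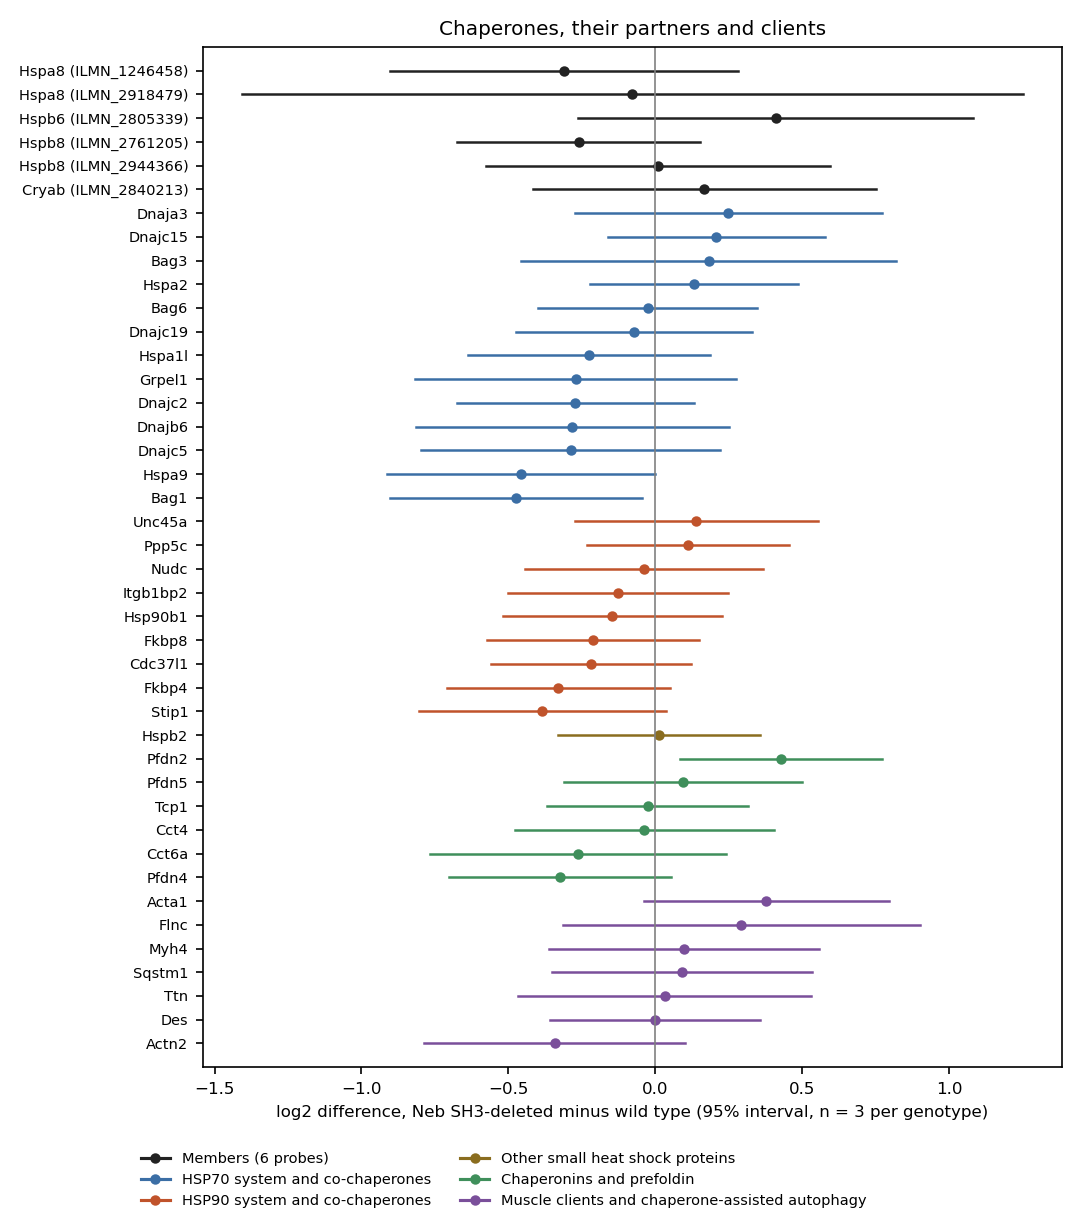
Log2 difference between Neb SH3-deleted and wild type muscle with its 95% interval (n = 3 per genotype) for the 6 kept chaperone probes and for each kept gene of the partner and client lists, coloured by list. All intervals of the chaperone probes include 0, and of the 36 partner and client genes those of Bag1 and Pfdn2 do not.

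Over the whole series, 4000 to 5844 probes per array were above background, 71.6% of probes were so on no array, and arrays of the same genotype correlated at 0.923 to 0.957 and of different genotypes at 0.918 to 0.958. The Neb probe was above background on 0 arrays (detection p 0.543 to 0.882), so it gave no check of the genotype labels. Of all kept probes 0 passed the adjusted threshold by limma and 147 reached an unadjusted p under 0.05. The muscle label matched the defining markers, since all 8 fast fibre genes were kept, summing to 4832 to 5698 units of normalized intensity in wild type and 4666 to 6687 in Neb SH3-deleted muscle. Each gene in these sums carries the offset of 16 units added in the background correction. Sums of a few dim genes are thus largely offset, as for the 1 kept adipocyte gene, and the sums do not compare cell types. Of 7 slow fibre genes 3 were kept (138.0 to 252.0 and 153.7 to 198.2 units), and of the satellite cell and nerve markers none of the 3 genes with a probe in each list were kept. Connective tissue genes (5 of 8 kept, 3 higher and 2 lower, the lower ones being Dcn at -0.02 and Lum at -0.12) summed to 181 to 351 units in wild type and 348 to 491 in Neb SH3-deleted muscle, with Col6a1 at 0.60 (unadjusted p 0.0044, adjusted p 0.984 by limma), and at 0.36 with median scaling. The 3 kept globin genes (of 7 listed) summed to 274 to 631 and 636 to 672 units, with Hbb-bs at 0.59, and at 0.38 without wild type array 1. The 2 kept endothelial and pericyte genes (of 7) summed to 50.8 to 62.1 and 42.6 to 48.9 units, with Rgs5 at -0.40, and at -0.25 without wild type array 3. Macrophage genes (2 of 6 kept, 46.1 to 75.4 and 43.0 to 79.9 units) and adipocyte genes (1 of 5, 19.3 to 21.2 and 20.2 to 23.8 units) overlapped between the genotypes, as did the immediate early genes (3 of 8, 61.7 to 69.7 and 62.2 to 75.8 units), with Junb at 0.14, and at 0.0882 without Neb SH3-deleted array 1, 0.0907 without wild type array 3 and 0.22 without wild type array 1. The markers Tnni1 (slow fibre), Pax7, Myf5, S100b, Ptprc, Adgre1, Plin1, Fabp4, Tek, Pdgfrb and Hbb-b2 were above background on no array. The part of these cell types in the chaperone values was not tested.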

How the data were processed

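RNA of 3 wild type and 3 Neb SH3-deleted tibialis anterior muscles was extracted with Trizol and labelled with biotin, per the labels' protocols. The authors deposited a non-normalized table that holds, per the file headers, the signal intensity of 45281 probes with their detection p-values. The authors also deposited processed values, which behave as log2 values with 1 shared distribution (median 6.10) and the array ranks of the signal intensities. The submitters' processing notes name lumi, and whether that scale is a plain log2 stays unknown. Columns of sample values left unused numbered 0.

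Signal intensities were background-corrected with limma's normexp from detection p-values (offset 16), taken to log2 and quantile normalized. A probe was kept where its detection p was under 0.05 on 3 or more arrays, and each was tested on its own. Symbols came from the platform annotation (34885 probes with 1 symbol, 18 with several, 10378 with none). The test between genotypes was limma 3.58.1 (R 4.3.3), by lmFit and eBayes, two-sided and without covariates, and p-values were adjusted by Benjamini-Hochberg over the kept probes. For partner lists the probe of highest mean per gene was used. The path was tested on simulated data. The number of arrays limits the precision. The labels gave the groups and the replicate numbers, by which arrays are numbered.

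Named were all members, each list gene at an unadjusted p under 0.05 or otherwise the higher and the lower gene of smallest p per list, and the 3 transcripts most like each of the 3 brightest members. Some others, among them Bag3, Pfdn4 and Des, were named outside this rule. The members and lists were chosen with earlier results of these data known. Alternatives covered background correction, normalization, the deposited values, the filter, probes of a gene, the replicate block, array weights, the variance prior, arrays left out and the threshold.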

Additional observations from a re-analysis of the deposited data

How the results depend on the processing

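In each of 20 alternatives 0 chaperone probes and 0 of all probes tested passed the adjusted p of the limma test. Over all probes, 147 had an unadjusted p under 0.05 as reported, 223 without Neb SH3-deleted replicate 2, 36 with the stricter filter (1141 probes tested) and 1895 without a filter (45281 tested). Without a filter, 1 of 17 chaperone probes reached an unadjusted p under 0.05, an Unc45b probe above background on 0 arrays, for which no difference is given. The number of chaperone probes higher in Neb SH3-deleted muscle moved from 3 of 6 to 1 of 6 with median scaling and to 9 of 17 without a filter, and their median residual SD from 0.45 to 0.0563 without a filter, where probes at background enter. On the 6 probes themselves that median was 0.156 without background correction, 0.233 with an offset of 50 and 0.152 in the authors' processed values, and all kept probes fell with it (0.0733, 0.0964 and 0.0719, from 0.21). Spans in the raw signals and under each scale were chosen after seeing the data. With 1 array left out, 2 to 4 probes were higher.

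Directions turned with median scaling for Hspb6 (-0.0105), Hspb8 ILMN_2944366 (-0.12), Bag3 (-0.0566), Hspb2 (-0.0563) and Acta1 (-0.0158), with cyclic loess for Hspa8 ILMN_2918479 (0.00069), with the mean of a gene's probes for Hspb8 (-0.13), and without both arrays apart on the first component for Hspb8 ILMN_2944366 (-0.26), Unc45a (-0.085) and Hspb2 (-0.0109). With median scaling the median difference over all kept probes was -0.0965, against -0.03 as reported. The cause of these turns was not tested. With each array left out the differences ran from -0.71 to 0.63 for Hspa8 ILMN_2918479, from -0.26 to 0.35 for Hspb8 ILMN_2944366, from -0.13 to 0.40 for Cryab, from 0.01 to 0.65 for Hspb6, from -0.10 to 0.48 for Bag3, from -0.0036 to 0.30 for Unc45a and from -0.0538 to 0.11 for Hspb2. Hspa8 ILMN_1246458, Hspb8 ILMN_2761205, Bag1 and Pfdn2 kept their direction in all alternatives in which they were tested. The filter, the replicate block and the variance prior cannot change a difference, so those alternatives say nothing about direction. Without background correction Hspa8 ILMN_1246458 was at -0.10, Hspb8 ILMN_2761205 at -0.08, Cryab at 0.06 and Hspb8 ILMN_2944366 at 0.02.

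Whether the replicate numbers pair the mice is not known. Deviations of same-numbered arrays from their genotype means correlated at -0.22, -0.18 and 0.09 over kept probes. With the replicate block 0 probes passed and 117 reached an unadjusted p under 0.05 by limma. Each replicate number holds an array of each genotype, so the block cannot change a difference. The differences of the 6 chaperone probes are the same by construction, with Hspb6 at 0.41, and do not test the pairing. A block by slide could not be fitted, since no slide is named in the labels or headers. Signal over background is a limit, since 5 of the 9 chaperone genes with a probe had no probe above background on 3 or more arrays.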
